A study of Mus musculus with 6 samples.

Results

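Claudins are the membrane proteins that form the strands of tight junctions, and 10 of their genes with a place in gut epithelia were followed here: Cldn1, Cldn2, Cldn3, Cldn4, Cldn6, Cldn7, Cldn8, Cldn12, Cldn15 and Cldn18. They were taken as a named list, 10 of 19938 genes measured by a probe set with a single gene symbol, and each had 1 such probe set. The list was chosen by function and with the deposited log2 levels of both groups, and so the difference between them, already known. For that reason the levels, differences and limma calls of its members are given as a description only, and no call is a test of the list. RNA came from epithelial cells isolated from mouse small intestine at E18.5, shortly before birth, and each sample was hybridised to 1 Affymetrix Mouse Gene 1.0 array. The arrays labelled cKO (n = 3) held RNA of Gata4Gata6 double conditional knockout mice, and the control arrays (n = 3) held RNA of mice that the labels call control without further genotype. The sources used here do not state the strain, the alleles, the cre driver with the cells in which it acts, or any allele that controls share with the knockout. They also do not say whether each array held RNA of its own animal, and SEs and p-values then cover only the spread of these samples, possibly a technical one.

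In an epithelial sheet the claudins of neighbouring cells bind each other across the gap between them, and the mix of claudins sets how tight and how charge-selective the paracellular path is. Some members form pores: claudin-2 passes cations and water, claudin-15 passes cations and returns sodium to the small intestinal lumen for sodium-coupled nutrient uptake, and claudin-12 has been tied to paracellular calcium. Others mainly seal: claudin-1, claudin-3, claudin-4 and claudin-8, of which claudin-8 is known from the distal colon and the distal nephron. Claudin-7 also lies along the basolateral membrane, where it binds EpCAM. Claudin-6 is a claudin of embryonic epithelia, and claudin-18 is best known from stomach and lung. GATA4 and GATA6 are transcription factors of the gut endoderm.

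The promoters of 9 members were found in the RefSeq table of GRCm38.p6. None was listed for Cldn8, so its promoter was not searched. Cldn15 was the pore gene whose level was lower on the arrays labelled cKO by the most. Cldn1 differed most between arrays of 1 label, and Cldn3 and Cldn4 are neighbouring sealing genes. For these genes the sequences of the 250 bases before the start are shown. They lie at chr5:136967619-136967868 on the plus strand (Cldn15), chr16:26371840-26372089 on the minus strand (Cldn1), chr5:134985964-134986213 on the plus strand (Cldn3) and chr5:134946935-134947184 on the minus strand (Cldn4). Each is written 5′ to 3′ on the strand of its gene, and capitals mark a match to a GATA factor motif.
Cldn15: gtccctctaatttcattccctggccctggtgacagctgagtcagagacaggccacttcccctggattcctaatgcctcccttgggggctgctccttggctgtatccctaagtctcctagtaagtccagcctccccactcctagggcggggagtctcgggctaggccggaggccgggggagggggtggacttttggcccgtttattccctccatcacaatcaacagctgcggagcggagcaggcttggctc
Cldn1: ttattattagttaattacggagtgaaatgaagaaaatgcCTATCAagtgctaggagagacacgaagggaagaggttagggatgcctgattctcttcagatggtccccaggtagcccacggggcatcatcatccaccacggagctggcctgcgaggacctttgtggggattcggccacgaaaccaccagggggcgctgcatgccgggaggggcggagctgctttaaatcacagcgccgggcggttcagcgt
Cldn3: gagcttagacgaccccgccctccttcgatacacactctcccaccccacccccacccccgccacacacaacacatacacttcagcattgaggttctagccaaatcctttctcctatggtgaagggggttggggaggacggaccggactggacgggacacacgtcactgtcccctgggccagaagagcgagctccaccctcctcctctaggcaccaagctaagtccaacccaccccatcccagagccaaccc
Cldn4: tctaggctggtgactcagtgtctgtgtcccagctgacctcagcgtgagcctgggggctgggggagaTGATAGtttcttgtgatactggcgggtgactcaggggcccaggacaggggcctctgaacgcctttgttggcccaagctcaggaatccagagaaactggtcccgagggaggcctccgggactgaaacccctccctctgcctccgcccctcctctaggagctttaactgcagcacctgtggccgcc
The letters searched, on both strands, were AGATAA, then its variant TGATAA, and both again ending in G, as AGATAG or otherwise TGATAG. They share the core GATA, and no run of 6 letters can match more than 1 of them. The Cldn1 window held 1 match, TGATAG on the opposite strand, and the Cldn4 window held 1 match, TGATAG on the strand of the gene. The windows of Cldn15 and Cldn3 held 0. Of the 9 members with a promoter listed there, 3 had a match (Cldn1, Cldn4 and Cldn18), 4 of the 13 windows of those 9 counting alternative starts, and 26.5% of all 32851 promoter windows of the same length had one. A match is a run of letters in the window, and the data hold no binding or chromatin measurement.

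The levels below are deposited log2 values. A probe set's level cannot be set against that of another probe set, so each gene is compared with itself across arrays, and changes are arrays labelled cKO minus control arrays. Each array's median was 7.73 to 7.84. The targeted transcripts did not check the labels: Gata4 averaged 11.41 ± 0.087 on the arrays labelled cKO and 10.95 ± 0.015 on the control arrays, and Gata6 averaged 12.71 ± 0.017 on the arrays labelled cKO and 12.26 ± 0.026 on the control arrays (SD, n = 3 each). Both were higher where a loss was labelled (limma adjusted p = 0.0101 and 0.0067), a probe set sums probes along a whole gene, and no source used here gives the deleted exons, so every direction rests on the labels. The arrays cKO 2 and control 3 stood apart. On cKO 2 the 7 of 8 hepatocyte markers measured averaged 13.16, against 8.98 and 9.11 on cKO 1 and cKO 3 and 10.58, 8.83 and 11.83 on controls 1, 2 and 3. Control 3 was the array with a low level of Xist, the RNA that coats the inactive X chromosome of females, at 6.18 against 11.74 to 12.42 on the others. All 10 markers of intestinal epithelium were measured at 9.90 or more, 3 rising and 1 falling under limma, against 5.52% and 7.42% of all genes. Their mean was 11.98 to 12.23 on the arrays labelled cKO and 12.25 to 12.27 on the control arrays. The median difference of these markers was 0.10, and single differences ran from −2.73 to 0.61. In RNA of a tissue preparation, fewer cells of a type and less RNA per cell cannot be told apart.

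The member that differed most evenly was Cldn8, the gene of a sealing claudin. Its level was 12.71, 12.57 and 12.68 on the arrays labelled cKO, against 10.24, 10.19 and 9.66 on the control arrays. All 3 arrays labelled cKO were higher than every control array, and the gap between the groups was far wider than the spread within either. The means were 12.65 ± 0.074 on the arrays labelled cKO and 10.03 ± 0.32 on the control arrays (SD, n = 3 each), a difference of 2.62 ± 0.16 (SE) or 6.16-fold. Among the 19938 genes this was the 27th most positive difference. It ran from 2.44 to 2.73 with 1 array left out. With both cKO 2 and control 3 left out it was 2.48.

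**Figure D1:**
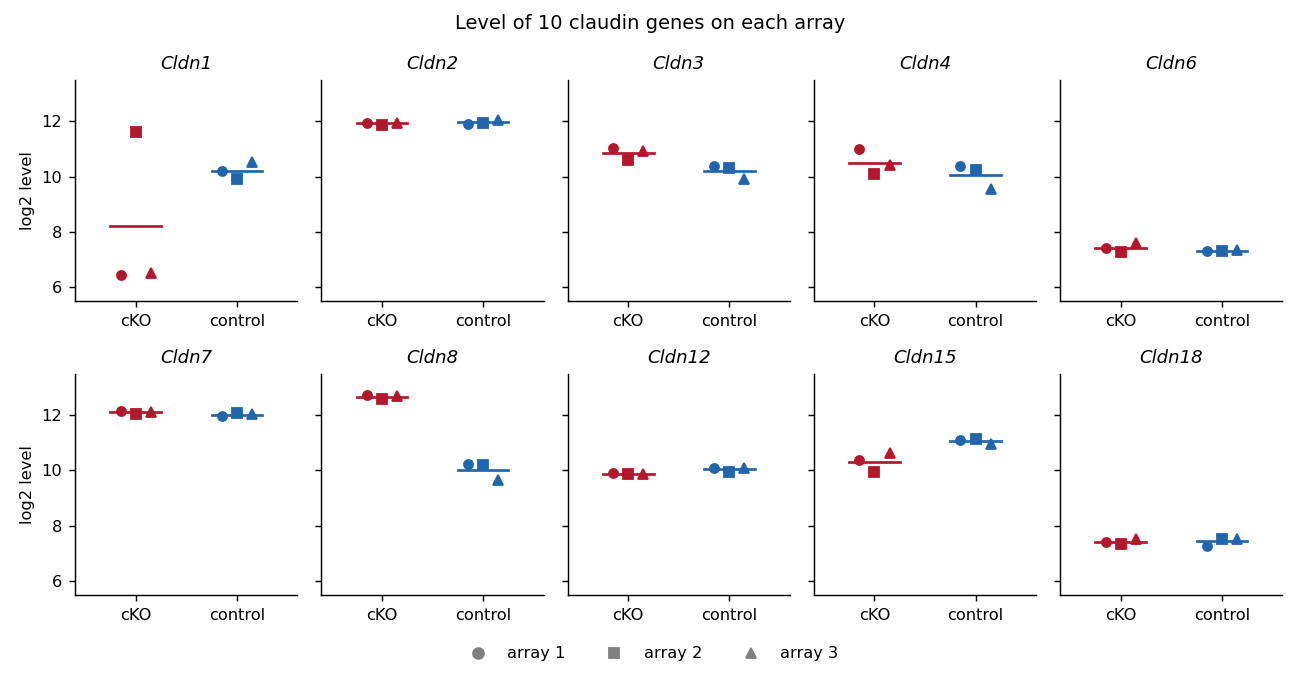
Deposited log2 level (vertical axis) of each of the 10 claudin genes on the 3 arrays labelled cKO (red, left) and the 3 control arrays (blue, right), with the array number given by the marker shape and the group mean by a line. Cldn8 is between 12.57 and 12.71 on the arrays labelled cKO and between 9.66 and 10.24 on the control arrays, and Cldn1 is near 6.5 on cKO 1 and cKO 3 but at 11.62 on cKO 2.

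The 2 pore genes Cldn2 and Cldn15 were unlike each other. Cldn15, the cation pore of the small intestine, stood at 10.38, 9.94 and 10.62 on the arrays labelled cKO, against 11.10, 11.14 and 10.95 on the control arrays. Every array labelled cKO was lower than every control array, and cKO 2 was the lowest. The difference was −0.75 ± 0.18 (SE), 1.68-fold lower on the arrays labelled cKO. It was −0.62 without cKO 2 and control 3, and −0.90 to −0.56 with 1 array left out. Cldn2, the cation and water pore, had 11.95, 11.87 and 11.95 on the arrays labelled cKO, against 11.91, 11.95 and 12.05 on the control arrays. The groups overlapped, and the difference was −0.05 ± 0.074.

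Cldn12, a gene tied to calcium permeability, had 9.90, 9.87 and 9.88 on the arrays labelled cKO, against 10.10, 9.93 and 10.09 on the control arrays. The arrays labelled cKO were all lower, by a small amount: the difference was −0.16 ± 0.077. Control 2 lay only 0.03 above the highest of cKO 1 and cKO 3.

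Cldn3 and Cldn4, sealing genes that lie next to each other among protein-coding genes, both had means above those of the controls. Cldn3 had 11.05, 10.59 and 10.91 on the arrays labelled cKO, against 10.38, 10.33 and 9.92 on the control arrays. The groups did not overlap, and the difference was 0.64 ± 0.17 (1.56-fold). Cldn4 had 10.99, 10.09 and 10.41 on the arrays labelled cKO, against 10.39, 10.24 and 9.55 on the control arrays. Here the groups overlapped, cKO 2 lying under 2 of the control arrays, and the difference was 0.44 ± 0.30. In both genes cKO 2 was lowest of its label and control 3 lowest of its own. Without control 3 the differences were 0.50 for Cldn3 and 0.18 for Cldn4.

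Cldn7, whose protein binds EpCAM, had 12.15, 12.03 and 12.10 on the arrays labelled cKO, against 11.95, 12.06 and 12.04 on the control arrays. The groups overlapped and the difference was 0.08 ± 0.074. Cldn6, the embryonic claudin, had 7.41, 7.27 and 7.60 on the arrays labelled cKO, against 7.31, 7.33 and 7.34 on the control arrays, and Cldn18, the claudin of stomach and lung, had 7.40, 7.34 and 7.51 on the arrays labelled cKO, against 7.28, 7.51 and 7.54 on the control arrays. Both overlapped, with differences of 0.10 ± 0.098 and −0.03 ± 0.098. Their levels lay a little under the array medians of 7.73 to 7.84 and came without detection calls, so whether either gene was expressed is not known. The 8 gastric markers also held 0 genes past the limma threshold given below, which 12.9% of all genes passed. Of these markers 3 had an unadjusted p under 0.05, as had 5294 of the 19938 genes. Their mean was 7.70 to 7.83 on the arrays labelled cKO and 7.75 to 8.03 on the control arrays.

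Cldn1, a sealing gene whose loss in mice breaks the water barrier of the skin, split the arrays labelled cKO. Its level was 6.45 on cKO 1 and 6.54 on cKO 3 but 11.62 on cKO 2, against 10.19, 9.90 and 10.53 on the control arrays. Thus 2 arrays labelled cKO lay at least 3.36 (10.3-fold) below the lowest control array, and the other lay above the highest. Over all 6 arrays the difference was −2.00 ± 1.35. Without cKO 2 it was −3.71, and without cKO 2 and control 3 it was −3.55. In all, 7 genes, Cldn1 among them, had both cKO 1 and cKO 3 that far under every control array. Of these 7 only Cldn1 had a level on cKO 2 above all control arrays. The distinction is narrow, because Timd2 equalled its highest control array there, at 9.24.

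The hepatocyte markers were high on the same array. All 7 measured were highest on cKO 2, none was at 0 on any array, and 3 exceeded the mean of cKO 1 and cKO 3 by as much as Cldn1 did (5.12) or more. Over all genes 18, Cldn1 included, had an excess of that size. On controls 1, 2 and 3 the hepatocyte mean was 10.58, 8.83 and 11.83 and Cldn1 was 10.19, 9.90 and 10.53. On cKO 1 and cKO 3 the hepatocyte mean was 8.98 and 9.11, above that of control 2, and Cldn1 was 6.45 and 6.54, below it. The 3 of 8 erythroid markers measured also peaked on cKO 2, at a mean of 11.71 against 7.72 and 7.85 on cKO 1 and cKO 3 and 8.0 to 9.67 on the control arrays. The part of these cells in the level of Cldn1 on cKO 2 was not tested. Of the other 9 members each was lowest of its label on cKO 2.

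The 5 genes whose centred profile was nearest to that of Cldn1 were chosen after its values had been seen. They were Timd2, Cyp2c23, Rgn, Cd302 and C730029A08Rik, at a root mean square distance of 0.43 to 0.61 over the 6 arrays. Cyp2c23, a cytochrome P450 gene, had 7.11, 11.09 and 7.20 on the arrays labelled cKO, against 9.78, 9.92 and 10.58 on the control arrays. Rgn, the regucalcin gene, had 5.63, 9.68 and 5.97 on the arrays labelled cKO, against 8.41, 8.82 and 9.13 on the control arrays. Each of these 5 was low on cKO 1 and cKO 3 alone. Like Cldn1, the genes Cyp2c23, Rgn and Cd302 were above every control array on cKO 2. For Cd302 the level there was 9.42, against at most 8.94 on the control arrays.

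**Figure D2:**
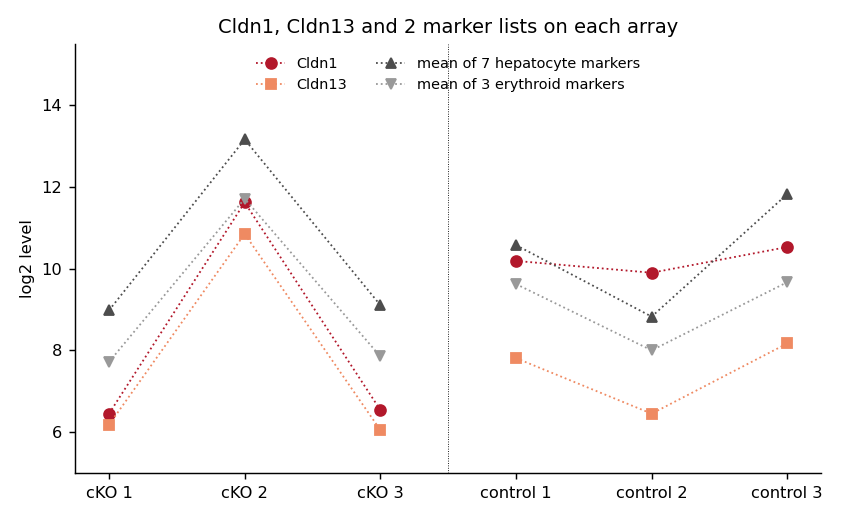
Deposited log2 levels (vertical axis) of Cldn1 and Cldn13, and the mean levels of 7 hepatocyte and 3 erythroid markers, on each of the 6 arrays, with the arrays labelled cKO left of the controls. Dotted lines only join the points of 1 gene or list within a label, and all 4 are highest on cKO 2. On the control arrays all 4 are lowest on control 2 and highest on control 3, with Cldn1 between 9.90 and 10.53. On cKO 1 and cKO 3 Cldn1 is at 6.45 and 6.54 and the hepatocyte mean at 8.98 and 9.11, against 8.83 on control 2.

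Across the family, 4 of the 10 members had groups that did not overlap, 2 with higher levels on the arrays labelled cKO (Cldn8 and Cldn3) and 2 with lower levels (Cldn12 and Cldn15). The share over all genes was 32.6%, with 14.3% higher and 18.3% lower. A limma fit over all 19938 genes with Benjamini-Hochberg adjustment called 12.9% of them at an adjusted p under 0.05, 5.52% as higher and 7.42% as lower on the arrays labelled cKO. Of the members it called 2, Cldn8 and Cldn15, which is a description because the members were chosen with this contrast known. The alternatives refit these same 6 arrays or fewer of them, so whether a call is kept is a description too. The call of Cldn8 was kept under all 14 alternatives run. That of Cldn15 was lost under 7 of them, namely without cKO 1 or any 1 control array, with quantile normalization, with median centring and with a replicate block. Cldn3 was not called over all 6 arrays but was without cKO 2, and Cldn1 was called without cKO 2, where the share over all genes was 11.4% (4.81% higher and 6.63% lower). Without cKO 2 and control 3, Cldn8, Cldn3, Cldn1 and Cldn15 were called, where the share was 7.95% (3.55% higher and 4.4% lower). The members' median difference was 0.025, against −0.01 over all genes.

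Of 13 further claudins measured out of 16 listed, 1 passed the limma test over all genes, higher on the arrays labelled cKO, against 12.9% of all genes called. An unadjusted p under 0.05 was found for 2 of the 13, and for 5294 of the 19938 genes. The gene that passed was Cldn9, known from the inner ear and close in sequence to Cldn6, with 8.22, 7.99 and 8.08 on the arrays labelled cKO, against 7.52, 7.61 and 7.75 on the control arrays. The groups were apart and Cldn9 rose by 0.47 ± 0.098 (SE, adjusted p = 0.0257), a call lost without cKO 1, cKO 3, control 1 or control 2 (adjusted p up to 0.0931) and with a replicate block (0.0921). Cldn24 had a difference of −0.38 ± 0.11, with groups apart (adjusted p = 0.0763).

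The remaining 11 of these genes were Cldn5, the main claudin of endothelium, Cldn10, Cldn11, the claudin of myelin and of Sertoli cells, Cldn13, Cldn14, Cldn16, Cldn17, Cldn19, Cldn20, Cldn22 and Cldn23. None passed (adjusted p 0.270 to 0.940), and the differences of the 13 genes ran from −0.38 to 0.47. Cldn20 and Cldn22 also had groups apart, both lower on the arrays labelled cKO, with differences of −0.08 and −0.14. In all, 4 of the 13 had groups apart, 1 as higher and 3 as lower, against 14.3% and 18.3% of all genes. Cldn5 had a difference of −0.04 ± 0.099 with a 95% interval of −0.28 to 0.20. Cldn13, a claudin gene of mouse without a human counterpart, had 6.18, 10.85 and 6.05 on the arrays labelled cKO, against 7.81, 6.45 and 8.17 on the control arrays. As with Cldn1, it was high on cKO 2, where it exceeded the mean of cKO 1 and cKO 3 by 4.74. The erythroid mean was also highest on cKO 2 and was 9.62, 8.0 and 9.67 on controls 1, 2 and 3, and its part in the level of Cldn13 was not tested. Its difference was 0.22 ± 1.31 and was −1.36 without cKO 2. A further 5 genes of the Cldn34 group had differences of −0.17 to 0.30, and 0 passed under limma, also at an unadjusted p under 0.05.

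**Figure D3:**
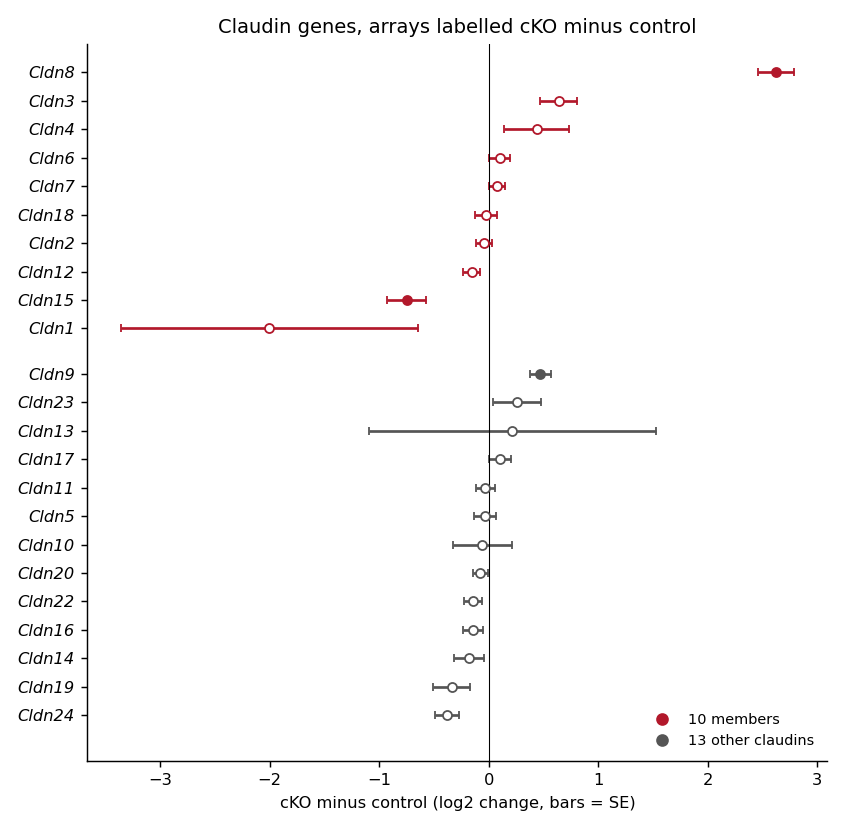
Difference in log2 level between the arrays labelled cKO and the control arrays (horizontal axis, points, with SE bars) for the 10 members (red) and 13 other claudins (grey), n = 3 arrays each. Filled points are genes called by limma over all genes. Cldn8 lies at 2.62, all 13 other claudins lie between −0.38 and 0.47, and the widest bars are those of Cldn1 and Cldn13.

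Several claudin genes lie side by side. By RefSeq order among protein-coding genes (GRCm38.p6) Cldn8 lies next to Cldn17, Cldn1 next to Cldn16, Cldn6 next to Cldn9 and Cldn4 next to Cldn3. Beside the 2.62 of Cldn8, Cldn17 had a difference of 0.11 ± 0.10 (95% interval −0.13 to 0.35). Beside Cldn1, Cldn16 had −0.15 ± 0.092 and was even across arrays, at 7.28, 7.38 and 7.19 on the arrays labelled cKO and 7.36, 7.56 and 7.37 on the control arrays.

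The genes nearest to Cldn8 over the 6 arrays, by root mean square difference between profiles centred on their own mean, were Gna14, which encodes a G protein alpha subunit, Itih5, an inter-alpha-trypsin inhibitor heavy chain gene, Sema3c, which encodes a secreted semaphorin, Pla2g4c, a phospholipase A2 gene, and Lin7a, whose product is a scaffold of cell polarity complexes. Their distances ran from 0.12 to 0.19. Gna14 had 9.97, 9.55 and 9.96 on the arrays labelled cKO, against 7.40, 7.39 and 7.04 on the control arrays. Like Cldn8, all but Pla2g4c and Itih5 had their lowest array labelled cKO at cKO 2, and all 5 had their lowest control array at control 3. A profile over 6 arrays in 2 groups mostly reflects the group difference, so likeness here is a description.

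**Figure D4:**
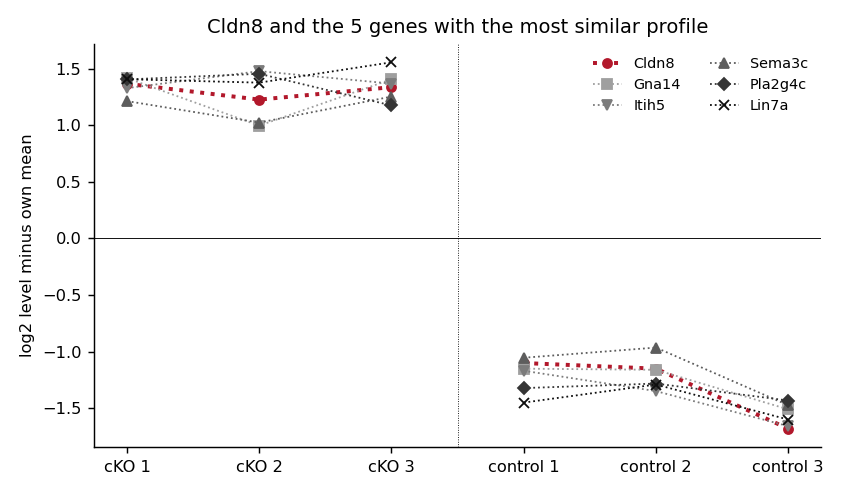
Log2 level minus the gene's own mean over 6 arrays (vertical axis) for Cldn8 (red) and the 5 genes nearest to it (grey to black), with the arrays labelled cKO left of the controls and dotted lines only joining a gene's points within a label. All 6 genes lie about 1 or more above their mean on the arrays labelled cKO and below it on the control arrays, lowest on control 3.

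Claudins share the junction with MARVEL-domain proteins and with the angulins of tricellular contacts. Of 11 membrane proteins of the tight junction 3 passed the limma test as higher and 1 as lower on the arrays labelled cKO, against 5.52% and 7.42% of all genes, and their median difference was 0.10. Ildr1 encodes angulin-2, which marks the corners where 3 cells meet. It had 10.12, 9.78 and 10.18 on the arrays labelled cKO, against 8.63, 8.15 and 8.17 on the control arrays, and the groups were well apart. It rose by 1.71 ± 0.17 (3.27-fold, limma adjusted p = 0.00167). Marveld3, a MARVEL-domain gene, had 10.25, 10.09 and 10.24 on the arrays labelled cKO, against 9.46, 9.64 and 9.57 on the control arrays, and rose by 0.64 ± 0.086 (adjusted p = 0.00523). Both kept their calls under all alternatives run.

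Lsr, which encodes angulin-1, had 11.51, 11.34 and 11.38 on the arrays labelled cKO, against 11.06, 11.02 and 10.82 on the control arrays, and rose by 0.44 ± 0.095 (adjusted p = 0.0290). Igsf5, which encodes a junctional immunoglobulin protein, had 9.64, 9.56 and 9.60 on the arrays labelled cKO, against 9.94, 9.95 and 10.28 on the control arrays, and fell by 0.46 ± 0.11 (adjusted p = 0.0427). With 1 array left out Lsr kept its call for cKO 2 alone (adjusted p up to 0.0816 for the others), and Igsf5 lost it each time (up to 0.117). Ocln, the occludin gene, had 10.36, 10.35 and 10.47 on the arrays labelled cKO, against 10.53, 10.54 and 10.34 on the control arrays. Those groups overlapped, and the difference was −0.08 ± 0.087 (adjusted p = 0.639, 95% interval −0.29 to 0.13). Marveld2, named after its values were seen, encodes tricellulin, which angulins recruit, and had a difference of −0.11 ± 0.077 (adjusted p = 0.416).

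Of 21 plaque and polarity genes measured out of 24 listed, 1 rose and 1 fell, against 5.52% and 7.42% of all genes, and the median was 0.01. All 21 differences were smaller than 0.5 in either direction, as were those of 17285 of the 19938 genes, and 9 of the 21 had groups apart, against 32.6% of all genes. Afdn, which encodes the actin-binding afadin, had 10.26, 10.23 and 10.37 on the arrays labelled cKO, against 9.99, 9.93 and 9.91 on the control arrays, and rose by 0.34 ± 0.074 (adjusted p = 0.0294). Pard6a, a polarity adaptor gene, had 8.42, 8.68 and 8.46 on the arrays labelled cKO, against 8.97, 8.92 and 8.84 on the control arrays, and fell by 0.39 ± 0.094 (adjusted p = 0.0436). Neither call survived leaving out a single array other than cKO 2, with adjusted p up to 0.104 for Afdn and 0.136 for Pard6a. Tjp1, the gene of the claudin scaffold ZO-1, had 10.76, 10.55 and 10.66 on the arrays labelled cKO, against 11.04, 10.83 and 10.77 on the control arrays, a difference of −0.22 ± 0.10 with groups apart (adjusted p = 0.228).

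The EpCAM system includes a partner of claudin-7 and the proteases that cut EpCAM. Of 5 genes measured out of 6 listed 1 rose and 1 fell under limma, against 5.52% and 7.42% of all genes. The groups were apart for 4 of the 5, 2 as higher and 2 as lower, against 14.3% and 18.3% of all genes. Under limma 4 of the 5 had an unadjusted p under 0.05, as had 5294 of the 19938 genes. Epcam had 12.49, 12.39 and 12.55 on the arrays labelled cKO, against 12.12, 12.19 and 12.15 on the control arrays, and rose by 0.32 ± 0.075 (adjusted p = 0.0373). Epcam kept this call without cKO 2 and lost it without each other array in turn, where its adjusted p reached 0.126. Prss8, the gene of the membrane serine protease prostasin, had 10.83, 10.63 and 10.85 on the arrays labelled cKO, against 11.66, 11.55 and 11.67 on the control arrays, and fell by 0.86 ± 0.089 (1.81-fold lower, adjusted p = 0.00203). Its groups were apart, and the call held under all alternatives run.

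Of 15 adherens junction and desmosome genes 1 fell and 0 rose under limma, against 7.42% and 5.52% of all genes. An unadjusted p under 0.05 was found for 4 of the 15, and for 5294 of the 19938 genes. The gene that fell was Nectin2, an adhesion receptor gene, with 9.68, 9.62 and 9.77 on the arrays labelled cKO, against 10.22, 10.17 and 10.21 on the control arrays, and it fell by 0.51 ± 0.073 (adjusted p = 0.00656; 0.0554 without cKO 2 and control 3). Cdh1, the E-cadherin gene, had 12.64, 12.61 and 12.72 on the arrays labelled cKO, against 12.49, 12.47 and 12.45 on the control arrays. The difference of 0.19 ± 0.069 did not pass (adjusted p = 0.143), although the groups did not overlap.

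**Figure D5:**
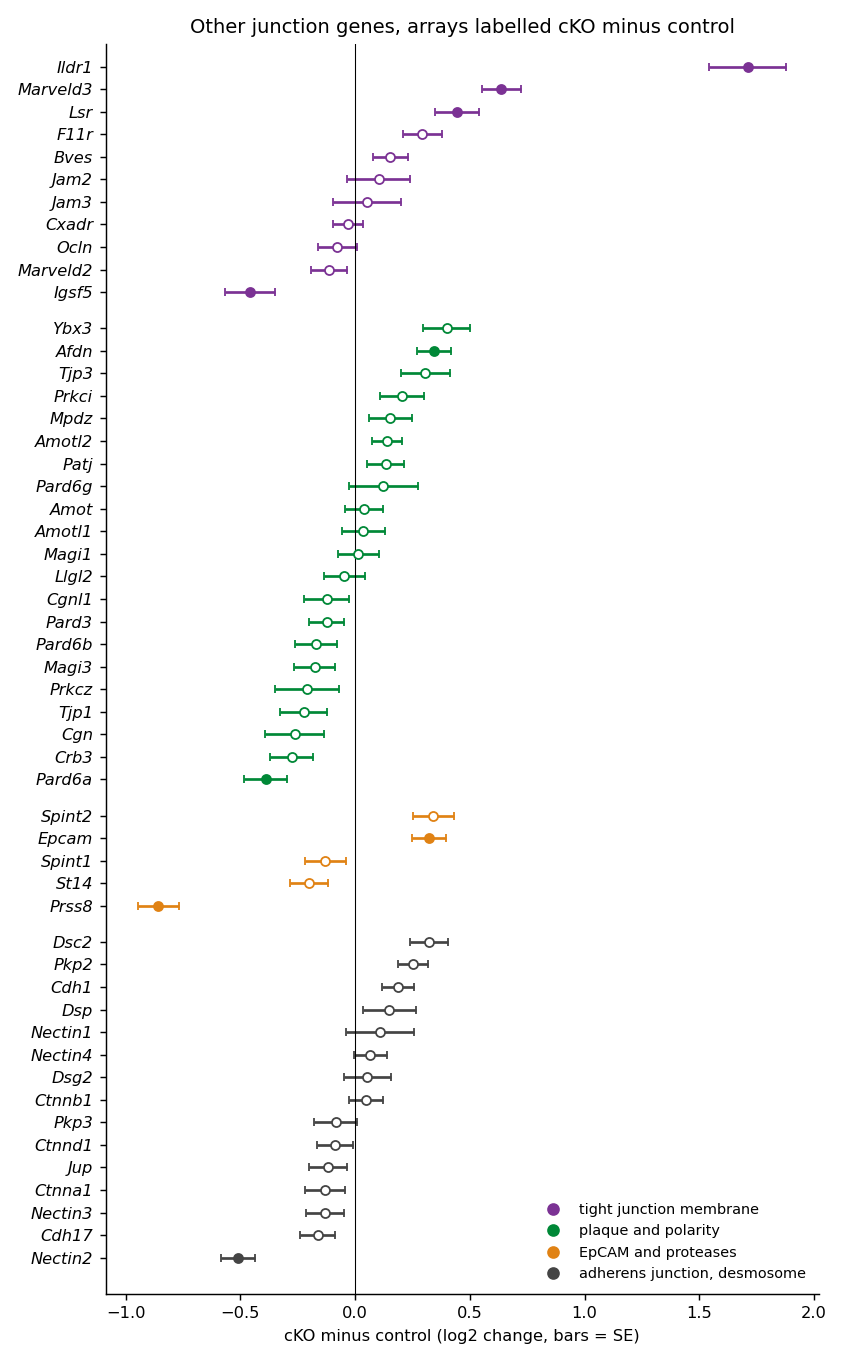
Difference in log2 level between the arrays labelled cKO and the control arrays (horizontal axis, points, with SE bars) for 11 tight junction membrane genes, 21 plaque and polarity genes, 5 genes of the EpCAM system and 15 adherens junction and desmosome genes, n = 3 arrays each. Filled points passed the limma test over all genes. Ildr1 at 1.71 is the farthest to the right and Prss8 at −0.86 the farthest to the left.

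Marker lists of other cell types were read on the same arrays. Over all genes limma called 5.52% as higher and 7.42% as lower, and 5294 of 19938 had an unadjusted p under 0.05. The 8 smooth muscle and fibroblast markers averaged 9.03, 8.69 and 8.23 on the arrays labelled cKO, against 8.18, 7.99 and 8.12 on the control arrays, and 0 of them passed under limma, though 6 had an unadjusted p under 0.05. The 6 mesothelial markers averaged 8.10, 8.05 and 7.98 on the arrays labelled cKO, against 7.69, 7.85 and 7.78 on the control arrays. Limma called 3 of these 6 as higher and 1 as lower. No marker of either list was at 0, the lowest level being 6.89 and 6.32. Their part in the differences of the claudins was not tested. Of 8 immune markers 1 passed, as lower with groups apart (a difference of −2.22, limma adjusted p = 0.0148), and of 8 endothelial and 6 pancreatic markers 0 passed under limma, also at an unadjusted p under 0.05. The immune and endothelial means were highest on cKO 2, at 9.60 and 8.44, and no other array passed 8.23 and 7.92. The 6 of 8 pancreatic markers measured ran from 9.24 to 10.31 on the arrays labelled cKO and from 7.54 to 10.44 on the control arrays.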

How the data were processed

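Per the labels, total RNA of isolated small intestinal epithelial cells was extracted with a Qiagen RNeasy kit, and biotin-labelled targets from the Affymetrix whole-transcript protocol went onto 6 Mouse Gene 1.0 arrays. The deposited values are log2 levels from the authors' dChip analysis, per the series design text. The sources used here do not give its version, background correction, normalization or genome build. The log base was read from the values (0 to 14.25), and centring is unknown. No detection calls or scanner files were used here.

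Gene symbols came from the platform annotation, looked up by gene ID in RefSeq (GRCm38.p6), where 21698 of 21789 probe sets with 1 symbol matched. A further 1621 probe sets have several symbols and 12102 have none, and these were not used. For 999 genes with several probe sets the brightest on average was kept, which left 19938 genes. No 2 arrays held identical values.

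Two-sided moderated tests came from limma 3.58.1 under R 4.3.3 (lmFit, then eBayes) on all genes and 6 arrays without covariates, with Benjamini-Hochberg adjustment over all genes and a threshold of 0.05. The SE is limma's moderated one. The fit was tested on simulated data. Folds are 2 to the power of the log2 difference. The members and gene lists were chosen with earlier results of these data known. Named are all members, all other claudins, up to 6 called genes of each junction list, Ocln, Tjp1, Epcam, Cdh1, Gata4, Gata6 and the 5 genes nearest to Cldn8. Outside that rule, and after their values were seen, the 5 genes nearest to Cldn1, Xist, Marveld2, Cldnd1 and the Cldn34 group were also named. The 14 alternatives were quantile normalization, median centring, log2(2 to the power of the level + 32), leaving out genes below the median level, trended robust eBayes, a replicate block, the mean of probe sets, each array left out, and cKO 2 and control 3 left out together. Same-numbered arrays did not deviate together (r of deviations −0.02, −0.42 and −0.18 for numbers 1, 2 and 3). Deviations within groups of 3 arrays cannot show whether the numbers pair arrays, and the labels do not say, so pairing is unknown. No scan date or batch is labelled, so none was tested.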

Additional observations from a re-analysis of the deposited data

How the results depend on the processing

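The number of claudin members called as higher was 1 (Cldn8), and it was 2, with Cldn3 added, for log2(2 to the power of the level + 32), without dim genes, with trended robust eBayes and without cKO 2 and control 3 (1 to 2 with 1 array left out). The number called as lower was 1 (Cldn15), and it was 0 with quantile normalization, median centring or a replicate block and 2 without cKO 2 and control 3 (0 to 2 with 1 array left out). With 1 array left out the members' median difference was −0.02 to 0.06. The single call among other claudins became 0 without dim genes, where Cldn9 was not tested, and with a replicate block (0 to 1 with 1 array left out). Of 32 tight junction genes measured 6 were called. More were called for the log2 offset (7), without dim genes (8) and with trended robust eBayes (8). Fewer were called with a replicate block (2), without cKO 2 and control 3 (3) and with 1 array left out (2 to 5). Of 20 EpCAM, adherens junction and desmosome genes measured 3 were called. The count was 6 for the log2 offset, without dim genes and with trended robust eBayes. It was 1 without cKO 2 and control 3, and 2 to 4 with 1 array left out. The share of all genes called was 12.9% over all 6 arrays, 11.4% without cKO 2 and 7.95% without cKO 2 and control 3. For the other settings that share is not given here, so these counts cannot be set against it. The cause of these shifts was not tested. Uncalled differences that changed sign were those of Cldn2 (0.02 without cKO 2 and control 3), Cldn18 (−0.11 to 0.022 with 1 array left out, and 0.06 without cKO 2 and control 3), Cldn5 (−0.12 to 0.022 with 1 array left out), Cldn10 (−0.29 to 0.16, and 0.31 without cKO 2 and control 3), Cldn11 (−0.072 to 0.043) and Cldn13 (−1.36 to 1.04, and −1.01 without cKO 2 and control 3). Leaving out dim genes removed Cldn6 and Cldn18 from the fit. The number of arrays limits all of these values, and without detection calls the levels of Cldn6, Cldn18 and most other claudins may lie at background.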

Other observations

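Cldnd1, a claudin-domain gene outside the claudin lists, was named after its values were seen. It had 10.17, 10.03 and 9.98 on the arrays labelled cKO, against 10.82, 10.85 and 10.76 on the control arrays. The groups were apart, and it fell by 0.75 ± 0.080 (SE, n = 3 arrays each, limma adjusted p = 0.00226).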
